A study of Rattus norvegicus with 24 samples.

Results

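The 8 genes of oligodendrocyte myelin described here are Mog, Mobp, Ermn, Hapln2, Cldn11, Omg, Tspan2 and Bcas1, in spiral ganglia from hearing and from kanamycin-deafened rats. The members were selected by symbol, with earlier results of these data known, and each was to be read from its brightest transcript by mean intensity. Each of the 8 had 1 transcript among the 14138 of the series, which carry 5745 gene names, so brightness chose nothing and the mean levels are given only as a description. All 8 had passed the selection that left 14138 of 26419 transcripts, by a rule that the sources used here do not state. The spiral ganglion holds the neurons that carry sound signals from the cochlear hair cells to the brain. Deaf rats were Sprague-Dawley animals of both sexes injected intraperitoneally with kanamycin, an aminoglycoside that destroys hair cells, at a daily dose of 400 mg/kg between P8 and P16, where P counts postnatal days, and hearing rats were littermates without injections. Ganglia were dissected at P32 or P60 without the organ of Corti and cut into an apical and a basal portion, which gives 8 groups of age, hearing condition and portion with 3 samples each.

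Each sample was a pool of 4 to 6 ganglia hybridized in 1 colour. Replicate 1 of each group was measured on a platform of 8 samples and replicates 2 and 3 on a platform of 16. Whether the apical and the basal sample of 1 number came from the same ganglia is not stated. The tests take them as independent, so the p-values below measure only the spread between these 24 samples. If they share ganglia, p-values for deafness or age over both portions are too small and those between the portions too large. Median intensities lay between 1997 and 2263 linear units in the 24 samples. Levels are log2 intensities of 1 probe set and are not compared between genes. Whether groups of 3 samples overlap is a description, and the share of all transcripts without such overlap is not given here. In the P32 hearing apical group, replicates 1 and 3 lay close to the basal samples in Mog, Mobp, Ermn and Hapln2 and replicate 2 did not, and the portion, deafness, age and correlation results are also given without them. The single sample then left in that group is assumed to vary like the other groups. Replicates 1 and 3 were left out for their values of these genes, so changes in these genes without them follow from the choice.

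Oligodendrocytes wrap axons of the central nervous system in myelin, whereas Schwann cells do so in peripheral nerve. The central axons of the spiral ganglion neurons pass through a glial transition zone in the auditory nerve, with Schwann cells on the cochlear side and oligodendrocytes and astrocytes on the side of the brain. Some myelin proteins, such as those of Mbp and Mag, are made by both glial types, while those of Mog, Mobp, Ermn and Hapln2 are known chiefly from oligodendrocytes. Mog encodes a glycoprotein on the outermost myelin surface, Mobp a small basic protein of compact myelin, Ermn the cytoskeletal protein ermin and Hapln2 a link protein that holds hyaluronan at the central node of Ranvier. Cldn11 encodes the claudin of myelin tight junctions, which in the cochlea is also made by basal cells of the stria vascularis. Omg encodes a surface glycoprotein of oligodendrocytes and neurons that binds the Nogo receptor, Tspan2 a tetraspanin of differentiating oligodendrocytes, and Bcas1 a protein that marks oligodendrocytes as they start to myelinate.

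RefSeq (build GRCr8) gave, for 5 of the 8 members, windows of 250 bases before the start site its promoter table uses, and those of Mobp, Hapln2 and Cldn11 are shown because the levels of these 3 genes correlated over the samples. Capitals mark matches on either strand to 6 words searched in all windows, namely ACAAAG and ACAAT for SOX factors, CTGGCAC and CTGGTAC for MYRF, and CAGCTG and CATCTG for OLIG factors. Each sequence runs 5′ to 3′ on the strand of its gene. The last 115 bases of the Mobp window and the last 77 of the Hapln2 window lie inside the annotated span of the gene and are not printed.
Mobp, chr8:128746982-128747116, plus strand: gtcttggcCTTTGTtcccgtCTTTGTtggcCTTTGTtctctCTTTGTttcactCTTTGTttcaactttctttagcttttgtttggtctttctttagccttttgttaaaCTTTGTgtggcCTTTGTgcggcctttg
Hapln2, chr2:175794516-175794688, minus strand: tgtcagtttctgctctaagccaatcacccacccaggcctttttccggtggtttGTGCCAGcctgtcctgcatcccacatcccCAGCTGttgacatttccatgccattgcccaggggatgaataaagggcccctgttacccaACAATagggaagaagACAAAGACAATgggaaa
Cldn11, chr2:114149540-114149789, minus strand: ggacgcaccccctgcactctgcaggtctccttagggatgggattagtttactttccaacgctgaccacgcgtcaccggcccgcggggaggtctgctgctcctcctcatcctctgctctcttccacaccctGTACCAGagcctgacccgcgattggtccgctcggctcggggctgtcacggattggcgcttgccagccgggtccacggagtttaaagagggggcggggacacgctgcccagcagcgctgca
The Mobp window held 8 matches to ACAAAG, at positions -242 to -120 counted from the start in the table, of which 7 lie wholly in the printed part, all as CTTTGT on the strand shown. Only 2 of 33469 windows held as many, that of Mobp included, and 16.3% held at least 1. The Hapln2 window held 1 match to ACAAAG, 3 to ACAAT (in 30.0% of windows, 2 of the 3 in the printed part), 1 to CTGGCAC (3.8%) and 1 to CAGCTG (12%). The Cldn11 window held 1 match to CTGGTAC, which 1.8% of windows carry. The windows of Omg and Tspan2 held none of the 6 words, and CATCTG, in 14% of windows, was in none of the 5. A match is a description of letters in this window and says nothing on binding.

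Mog, Mobp, Ermn and Hapln2 were higher in the basal than in the apical portion. In hearing rats the 4 genes rose by 2.67 to 3.15 log2 units from apex to base. In deaf rats Mog, Mobp and Ermn rose by 2.58 to 3.37, and Hapln2 was 2.56 ± 0.64 higher without passing the test. In bulk tissue, fewer cells of a type and less RNA per cell cannot be told apart. Each test is limma's across all 14138 transcripts and 24 samples with platform as a term, differences are given ± SE, and p-values are adjusted by Benjamini-Hochberg with a threshold of 0.05.

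Mog in P32 hearing rats read 12.93, 10.09 and 12.42 in the apical and 13.17, 13.16 and 13.57 in the basal samples. Mog in P32 deaf rats read 10.79, 11.11 and 11.08 in the apical and 13.47, 13.24 and 13.12 in the basal samples. The basal levels were tightly grouped, and the basal and apical samples did not overlap at either condition. Mog in P60 hearing rats read 10.47, 8.73 and 8.43 in the apical and 13.34, 12.44 and 13.41 in the basal samples. Mog in P60 deaf rats read 10.86, 10.39 and 9.34 in the apical and 13.22, 12.68 and 13.30 in the basal samples. The P60 hearing apex had the lowest mean of all groups, and the basal samples lay near those of P32. Over all ages and conditions Mog was 13.18 ± 0.32 (SD, n = 12) in the base and 10.55 ± 1.33 (SD, n = 12) in the apex. Base exceeded apex by 2.67 ± 0.38 log2 units in hearing rats (adjusted p = 0.00601) and by 2.58 ± 0.38 in deaf rats (adjusted p = 0.00245), or 6.36-fold and 5.97-fold.

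Mobp in P32 hearing rats was 13.56, 10.81 and 12.11 in the apical and 13.69, 13.59 and 13.07 in the basal samples. Mobp in P32 deaf rats was 11.49, 11.59 and 10.40 in the apical and 14.48, 13.54 and 12.67 in the basal samples. Among the P32 hearing samples only apical replicate 1 reached the basal range, so those groups overlapped, and the deaf ones did not. Mobp in P60 hearing rats was 11.23, 9.58 and 6.80 in the apical and 14.04, 13.21 and 13.10 in the basal samples. Mobp in P60 deaf rats was 11.16, 10.46 and 7.69 in the apical and 13.64, 13.72 and 13.30 in the basal samples. Both P60 apical groups held 1 sample far below the others, replicate 3, and neither overlapped with the base. The hearing one, at 6.80, lay just above the lowest 1% of transcripts of its sample, at 6.74. The difference was 2.77 ± 0.53 log2 units in hearing rats (adjusted p = 0.02) and 3.09 ± 0.53 in deaf rats (adjusted p = 0.0047).

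Ermn in P32 hearing rats stood at 12.37, 6.84 and 10.63 in the apical and 12.06, 10.69 and 11.81 in the basal samples. Ermn in P32 deaf rats stood at 9.53, 7.32 and 9.40 in the apical and 12.61, 10.09 and 11.74 in the basal samples. The P32 hearing apex spanned nearly the whole range of the gene, from below every basal sample to above the 3 basal samples of its group. Ermn in P60 hearing rats stood at 9.02, 8.06 and 7.16 in the apical and 12.52, 12.09 and 11.93 in the basal samples. Ermn in P60 deaf rats stood at 9.66, 7.73 and 6.54 in the apical and 12.02, 12.19 and 11.77 in the basal samples. No apical sample of P60 came near the basal level, and the P60 basal samples differed little. The lowest value, 6.54, lay below the lowest 1% of transcripts of its sample, at 6.78. Ermn was higher in the base by 2.83 ± 0.60 log2 units in hearing rats (adjusted p = 0.0348) and by 3.37 ± 0.60 in deaf rats (adjusted p = 0.00574).

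Hapln2 in P32 hearing rats reached 10.41, 6.93 and 10.59 in the apical and 10.63, 10.93 and 11.86 in the basal samples. Hapln2 in P32 deaf rats reached 6.90, 8.92 and 9.05 in the apical and 10.35, 10.25 and 11.37 in the basal samples. The basal samples lay above the apical ones in both conditions, by a narrow margin in hearing rats, where apical replicate 3 lay just under the lowest basal sample. Hapln2 in P60 hearing rats reached 6.95, 5.43 and 6.08 in the apical and 10.13, 9.71 and 12.02 in the basal samples. Hapln2 in P60 deaf rats reached 7.28, 8.87 and 7.82 in the apical and 9.94, 9.94 and 12.36 in the basal samples. The basal and apical groups stood apart again, and replicate 3 was the highest of the basal samples in all 4 groups. The values 5.43 and 6.08 lay below the lowest 1% of transcripts of their samples, at 6.70 and 6.74. So did 6.90 in P32 deaf apical replicate 1, where that mark was 6.93. The sizes of the P60 hearing and P32 deaf differences thus depend on dim values. The difference was 3.15 ± 0.64 log2 units in hearing rats (adjusted p = 0.0284) and 2.56 ± 0.64 in deaf rats (adjusted p = 0.0651), and the difference of these effects was -0.59 ± 0.90 (adjusted p = 1). With the replicate number as a block the deaf difference passed (adjusted p = 0.0182). Same-numbered deaf portions varied together at P32 but not in every pair at P60. This cannot be told from the platform shift, which follows the replicate number. The deaf difference passed with the portion pair as a random block as well (adjusted p = 0.00256).

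Cldn11 in P32 hearing rats gave 13.37, 12.68 and 13.22 in the apical and 13.22, 13.72 and 14.04 in the basal samples. Cldn11 in P32 deaf rats gave 12.60, 13.02 and 13.79 in the apical and 13.34, 13.45 and 14.16 in the basal samples. These groups overlapped in both conditions. Cldn11 in P60 hearing rats gave 11.77, 12.48 and 12.03 in the apical and 13.29, 13.57 and 13.84 in the basal samples. Cldn11 in P60 deaf rats gave 12.59, 14.21 and 12.99 in the apical and 13.61, 14.17 and 14.16 in the basal samples. The P60 hearing apex lay below all other groups in its mean and apart from its basal samples, while in deaf rats apical replicate 2 was brighter than any basal sample of its group. Cldn11 was 1.02 ± 0.23 log2 units higher in the base of hearing rats (adjusted p = 0.058) and 0.61 ± 0.23 in that of deaf rats (adjusted p = 0.319), neither past the threshold. With the replicate number as a block shared by all 8 groups, the hearing difference passed (adjusted p = 0.0395). With the portion pair as a random block both passed (adjusted p = 0.00119 and 0.0272).

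Omg, Tspan2 and Bcas1 did not pass between the portions in either condition. Omg was higher in the base by 0.17 ± 0.17 log2 units in hearing rats (adjusted p = 1) and by 0.69 ± 0.17 in deaf rats (adjusted p = 0.0611). The deaf difference of Omg passed with the replicate number as a block (adjusted p = 0.0384) and with the portion pair as a random block (adjusted p = 0.00273). Tspan2 ran from 9.38 to 11.70, with a median of 10.19, in the apex and from 9.55 to 11.72, with a median of 10.42, in the base. Its difference was 0.19 ± 0.28 in hearing and 0.11 ± 0.28 in deaf rats, with 95% intervals from -0.39 to 0.78 and from -0.47 to 0.70. Bcas1 ran from 10.60 to 13.12, with a median of 11.95, in the apex and from 10.79 to 13.17, with a median of 12.10, in the base. Its difference was 0.05 ± 0.28 (95% interval -0.54 to 0.64) in hearing and 0.45 ± 0.28 (-0.14 to 1.04) in deaf rats. Both genes moved with the platform. Tspan2 averaged 11.18 ± 0.61 (SD, n = 8) on the platform of replicate 1 and 10.06 ± 0.39 (SD, n = 16) on that of replicates 2 and 3, and Bcas1 averaged 12.78 ± 0.37 and 11.68 ± 0.57, a shift that the platform term removes from the tests.

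**Figure D1:**
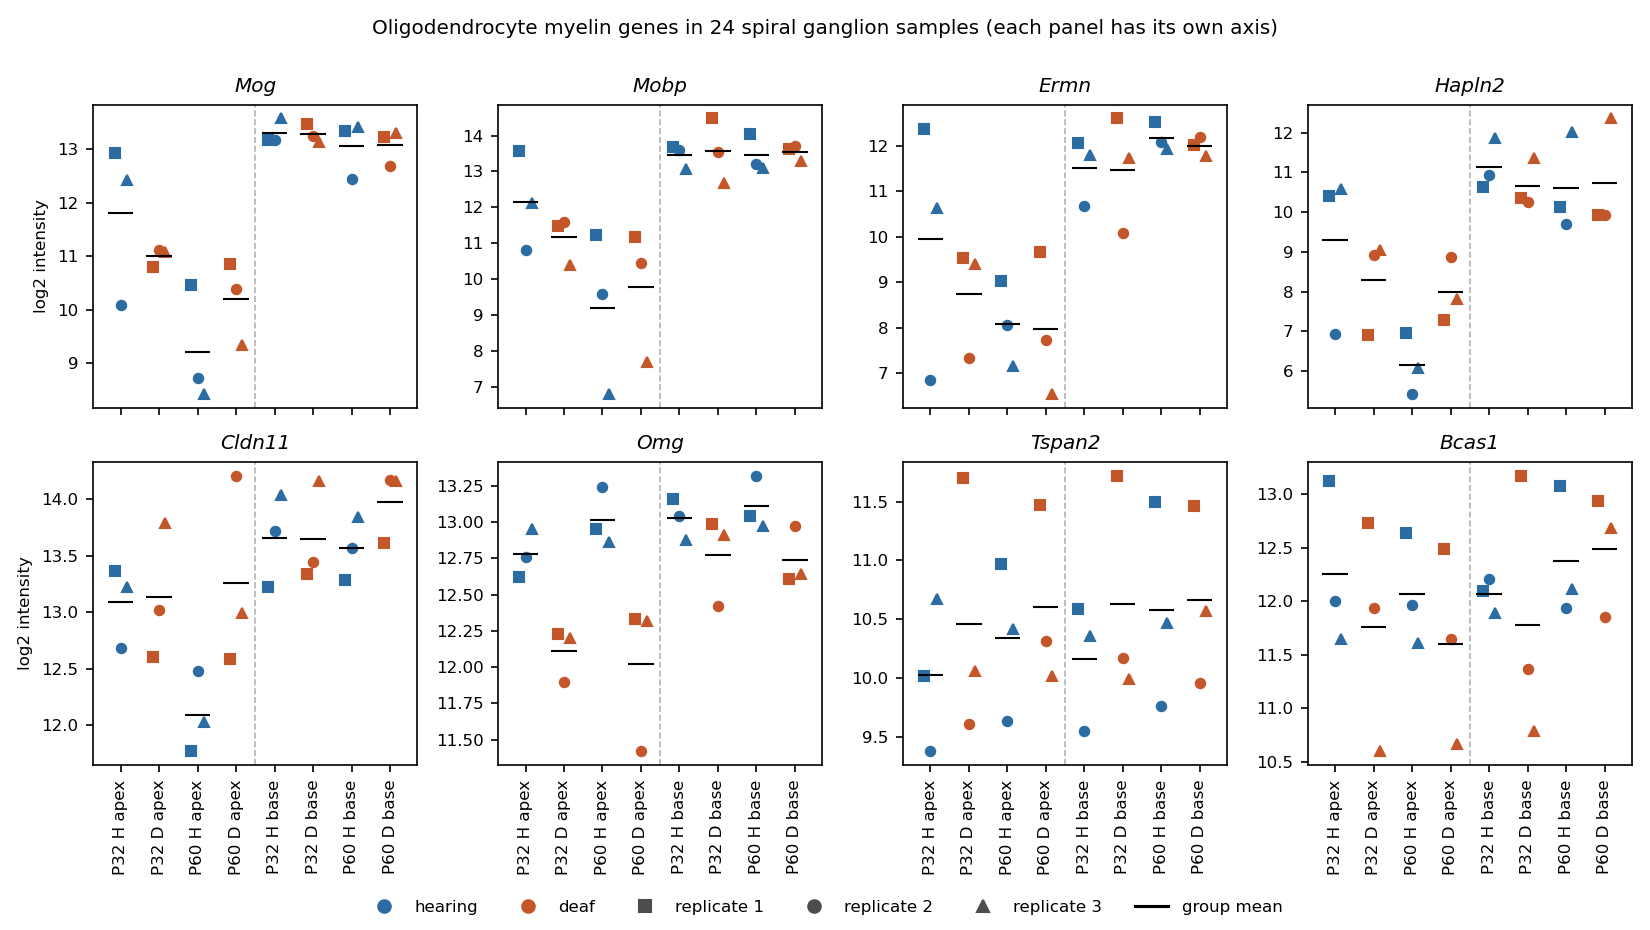
Log2 intensity of the 8 members in the 24 samples, with apical groups left and basal groups right of the dashed line, hearing samples (H) in blue and deaf samples (D) in orange, 1 symbol per replicate number and a bar at each group mean. Mog, Mobp, Ermn and Hapln2 are low and scattered in the apex, where Hapln2 falls to 5.43, and high in the base, whereas Tspan2 and Bcas1 follow the replicate number.

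In all, 4 of the 8 members passed in the hearing base-against-apex comparison and 3 in the deaf one, all higher in the base. Over all transcripts 0.587% were called higher and 0.0141% lower in the base of hearing rats, and 0.983% higher and 0.0707% lower in that of deaf rats. The median difference over the members was 1.84 log2 units in hearing and 1.63 in deaf rats, beside -0.04 and -0.05 over all transcripts. An unadjusted p under 0.05 was met by 5 members in hearing and 6 in deaf rats, and by 1077 and 1295 of all 14138 transcripts. Taken group by group, 5 members passed in P60 hearing rats (0.679% of all transcripts), Mog, Mobp, Ermn, Hapln2 and Cldn11, with differences of 3.85, 4.24, 4.1, 4.47 and 1.47 log2 units. In P60 deaf rats 3 passed (0.347%), Mog at 2.87, Mobp at 3.78 and Ermn at 4.02. At P32 no member passed in hearing rats, where 0% of transcripts did, nor in deaf rats, where 0.00707% did. Mog had the P32 difference with the smallest adjusted p, 2.28 ± 0.53 in deaf rats (adjusted p = 0.287). The excess of the P60 over the P32 portion difference was 1.48 ± 0.53 for Mog, 2.17 ± 0.75 for Mobp and 1.91 ± 0.85 for Ermn and passed for none (adjusted p = 1 each, with 0% of transcripts called and 3 members and 196 transcripts at an unadjusted p under 0.05), so the portion difference is not shown to depend on age. Without P32 hearing apex replicates 1 and 3 these values fell to 0.69 ± 0.46, 1.69 ± 0.85 and 0.55 ± 0.67 (adjusted p = 0.999 each). The P32 hearing difference alone was then 3.05 ± 0.59 for Mog (adjusted p = 0.0551), 2.24 ± 1.09 for Mobp (adjusted p = 0.878), 4.28 ± 0.85 for Ermn (adjusted p = 0.0671) and 4.45 ± 1.01 for Hapln2 (adjusted p = 0.147), and no member passed.

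Pairs of samples with the same number, age and condition gave 12 base-minus-apex values per gene. Mog, Mobp and Hapln2 were higher in the base in 12 of 12 pairs, with medians of 2.52, 2.80 and 2.92 log2 units. Ermn was higher in 11 of 12, with a median of 3.28, and its exception was P32 hearing replicate 1 at -0.31. That pair also gave the smallest differences of Mog (0.24), Mobp (0.13) and Hapln2 (0.21). Cldn11 was higher in 10 pairs and Omg in 11, with medians of 0.92 and 0.31, and the Tspan2 and Bcas1 medians were 0.09 and 0.22. Whether samples of the same number share ganglia is not stated for any group. Same-numbered portions did not vary together in every pair of P60 deaf rats. In the other groups they did, which cannot be told from the platform shift. In every group the pairs therefore only describe samples matched by number, and the counts of higher pairs were not tested.

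**Figure D2:**
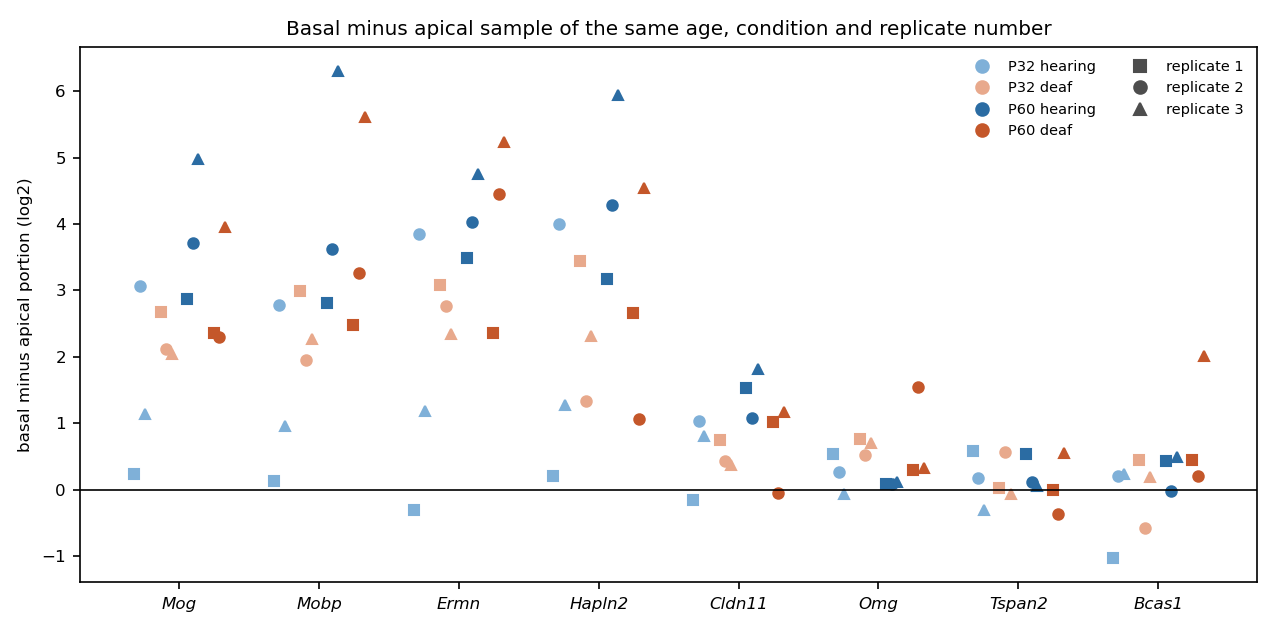
Base-minus-apex difference in log2 intensity for the 12 pairs of samples that share age, condition and replicate number, by gene, with colour for the group and symbol for the number. Points of Mog, Mobp, Ermn and Hapln2 lie between -0.31 and 6.30 and those of P60 hearing replicate 3 are the highest for 3 of these genes, while those of Omg, Tspan2 and Bcas1 lie between -1.03 and 2.01.

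Leaving out 1 sample at a time left Mog called in both conditions, and Mobp and Ermn in deaf rats, in all 24 fits, but it changed other calls. In hearing rats Mobp lost its call in 7 fits (2.26 to 2.85 log2 units, adjusted p = 0.0546 to 0.0745), those without P32 hearing apex replicate 2, P32 hearing base replicates 2 or 3, P60 hearing apex replicate 3, or P60 hearing base replicates 1, 2 or 3. Hapln2 lost it in 8 fits (2.49 to 3.24, adjusted p = 0.0594 to 0.104), those without P32 hearing apex replicate 2, P32 hearing base replicates 1, 2 or 3, P60 hearing apex replicates 2 or 3, or P60 hearing base replicates 1 or 3. Ermn lost it in 11 fits (2.16 to 3.02, adjusted p = 0.0501 to 0.109), those without P32 hearing apex replicate 2, any P32 hearing base sample, P32 deaf base replicate 1, P60 hearing apex replicates 1 or 3, any P60 hearing base sample, or P60 deaf base replicate 3. Cldn11 passed in hearing rats (1.02 to 1.19, adjusted p = 0.00606 to 0.0491) without P32 hearing apex replicate 1, P32 deaf apex replicate 3 or P60 deaf apex replicate 2. In deaf rats Hapln2 passed without P32 hearing apex replicates 1 or 2 (adjusted p = 0.0375 and 0.00908). Omg passed there (0.69 to 0.78, adjusted p = 0.044 to 0.0487) without P32 hearing apex replicate 1, P32 deaf base replicate 2 or P60 deaf apex replicate 3. All of these differences kept their direction. With P32 hearing apex replicates 1 and 3 both left out, the hearing differences were 3.45 for Mog, 3.24 for Mobp, 4.19 for Ermn and 4.46 for Hapln2. These 2 samples were chosen after seeing the data, for their high apical values of these 4 genes. The larger differences therefore follow from the choice and are no further support. Cldn11 then differed by 1.33 in hearing rats and Hapln2 by 2.56 in deaf rats. On the 16-sample platform alone the hearing differences stayed positive at 3.42 for Mobp, 3.46 for Ermn and 3.87 for Hapln2. None of these 3 passed there (adjusted p = 0.0862, 0.137 and 0.103). In deaf rats no member passed on that platform (Mog 2.61, adjusted p = 0.0602).

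Other genes of the myelin-forming cell were read from a list written with earlier results known. For this list and those below, measured means a named transcript among the 14138 of the series. Other listed genes may still be on the arrays. Of 55 genes of oligodendrocyte and shared myelin, 29 were measured, of which 3 rose from apex to base in hearing and 4 in deaf rats and none fell, with medians of 0.22 and 0.37 log2 units. Enpp2, the autotaxin gene, rose by 1.28 ± 0.21 (adjusted p = 0.00872) and 1.32 ± 0.21 (adjusted p = 0.00281), and Klk6, a protease of oligodendrocytes, by 2.43 ± 0.52 (adjusted p = 0.0355) and 2.25 ± 0.52 (adjusted p = 0.0392). Evi2a rose by 1.84 ± 0.34 and 1.47 ± 0.34, and Tf, which encodes transferrin, by 0.79 ± 0.18 in deaf rats (adjusted p = 0.0418). Mag, Mbp, Cnp and Sox10, chosen after their values were seen, did not pass. Mag, an adhesion molecule of the inner myelin surface, differed by 1.12 and 1.39 log2 units in hearing and deaf rats, and Mbp, the basic protein of compact myelin, by 0.50 and 0.74. Cnp differed by -0.06 and 0.07 and Sox10, a factor of all myelin-forming glia, by 0.02 and -0.13. Of 15 genes of oligodendrocyte precursors 3 were measured, and Bcan, a proteoglycan of brain matrix, rose in deaf rats by 2.08 ± 0.49 (adjusted p = 0.0482).

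Genes of other cell types were read in the same comparison. Of 32 Schwann cell genes 17 were measured and none passed in either condition, with medians of -0.26 and -0.30 log2 units. Prx, the gene of periaxin, a protein of Schwann cells, differed by -0.34 and -0.83. Of 25 astrocyte genes 19 were measured, of which 9 rose in hearing and 9 in deaf rats and none fell, with medians of 1.60 and 1.71. Ntsr2, a neurotensin receptor, rose by 2.16 ± 0.33 and 2.48 ± 0.33 (adjusted p = 0.00735 and 0.00215), and Slc7a10, an amino acid transporter, by 1.91 ± 0.32 and 2.0 ± 0.32 (adjusted p = 0.0103 and 0.00287). Aqp4, the water channel of astrocyte endfeet, rose by 3.22 ± 0.48 in deaf rats (adjusted p = 0.00263). The summed intensity of the 19 genes ran from 112619 to 241135 linear units in the apical and from 175589 to 288197 in the basal samples, and its highest apical value was in the P32 hearing group. In that group Gfap, the astrocyte filament gene, read 14.32, 10.56 and 12.03, high where Mog and Mobp were high.

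Of 23 ganglion neuron genes 21 were measured and none passed, with medians of -0.25 and -0.26 log2 units. Of 24 node and paranode genes 16 were measured, of which none passed in hearing rats and Cntn1, a paranodal contactin, and Bcan rose in deaf rats. Of 22 cerebellum and brainstem genes 5 were measured, and Calb1, a calcium-binding protein of many neurons, rose in both conditions, by 2.97 ± 0.56 and 3.24 ± 0.56 (adjusted p = 0.02 and 0.00469). The sum of these 5 ran from 824 to 14318 linear units in the apex and from 4173 to 13057 in the base. Gabra6, a receptor subunit of cerebellar granule cells, is not among these 5 and was read from the platform tables. It ran from 2.96 to 11.52 in the apex and from 3.62 to 10.15 in the base. It read 9.10, 3.40 and 9.13 in the P32 hearing apex, so within that group the samples high in Mog were high in it as well. Its highest apical value, 11.52, was in another group, where no apical sample read above 11.11 in Mog. Of 17 stria, fibrocyte and meninges genes 7 were measured, and Slc6a13, a transporter of meninges, rose in both conditions and Bmp6 in deaf rats. Of 16 macrophage genes 13 and of 12 muscle genes 4 were measured, and none passed between the portions. No measured marker is listed at 0, and the part of these other cell types in the differences of the members was not tested.

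**Figure D3:**
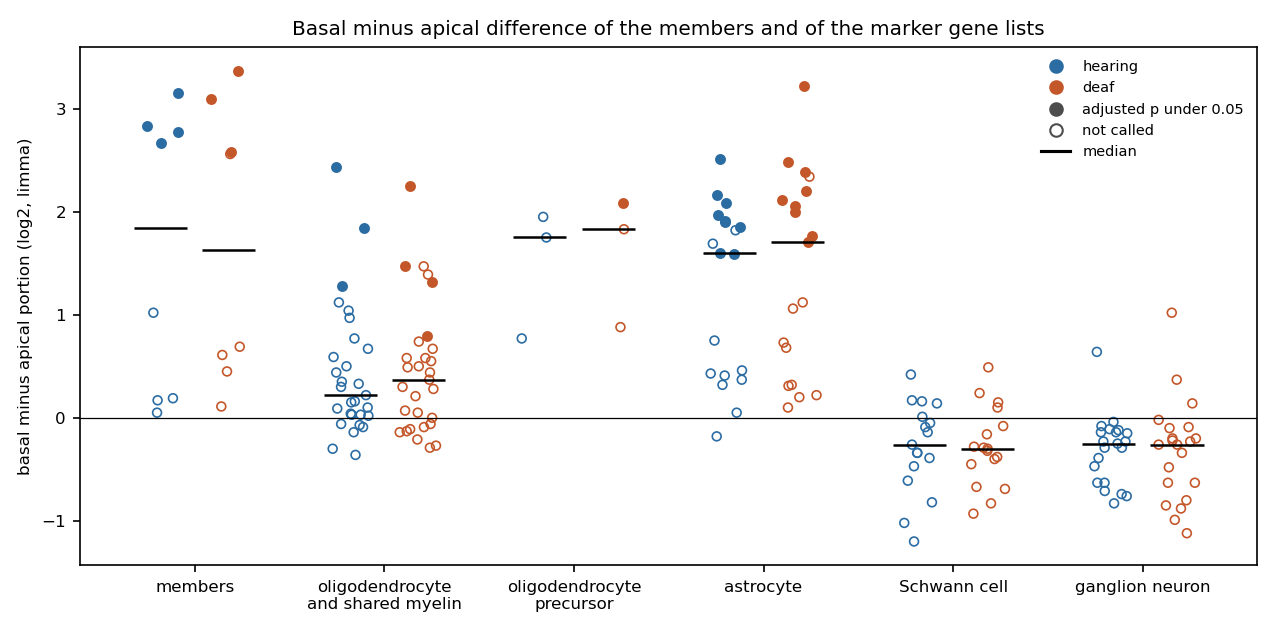
Base-minus-apex difference (log2, limma) of the 8 members and of the measured genes of 5 marker lists, in hearing (blue) and deaf rats (orange), filled where the adjusted p was under 0.05 and with a bar at the median. The astrocyte genes have medians of 1.60 and 1.71 and the Schwann cell genes of -0.26 and -0.30, and in deaf rats the open Hapln2 point (2.56) is covered by the filled Mog point (2.58).

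Over the 24 samples Mog, Mobp, Ermn and Hapln2 varied together. Their 6 pairwise Pearson correlations of log2 intensity, with the platform mean subtracted, ran from 0.83 to 0.96, and those of the 4 with the other members from -0.02 to 0.83. Cldn11 was the nearest of the others, at 0.80 with Mog and 0.83 with Hapln2. Among the 12 apical samples the 6 correlations ran from 0.63 to 0.95, and among the 12 basal samples from -0.36 to 0.78. The SDs over the 12 basal samples were 0.32 for Mog, 0.48 for Mobp, 0.72 for Ermn and 0.91 for Hapln2. Without P32 hearing apex replicates 1 and 3 the 6 correlations ran from 0.84 to 0.96 over 22 samples and from 0.28 to 0.89 over the 10 apical ones. In the apex Cldn11 and Omg ran opposite ways, at -0.69 over the 12 samples and -0.86 over these 10. Over these 10, Omg stood at -0.86 with Hapln2, -0.71 with Mog, -0.4 with Mobp and -0.16 with Ermn. Over the 12 these values were -0.35, -0.23, -0.15 and 0.15. P60 deaf apical replicate 2 had both the highest apical Cldn11 level, 14.21, and the lowest Omg level, 11.42. All these samples share arrays, pools and tissue makeup, and the correlations are a description.

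**Figure D4:**
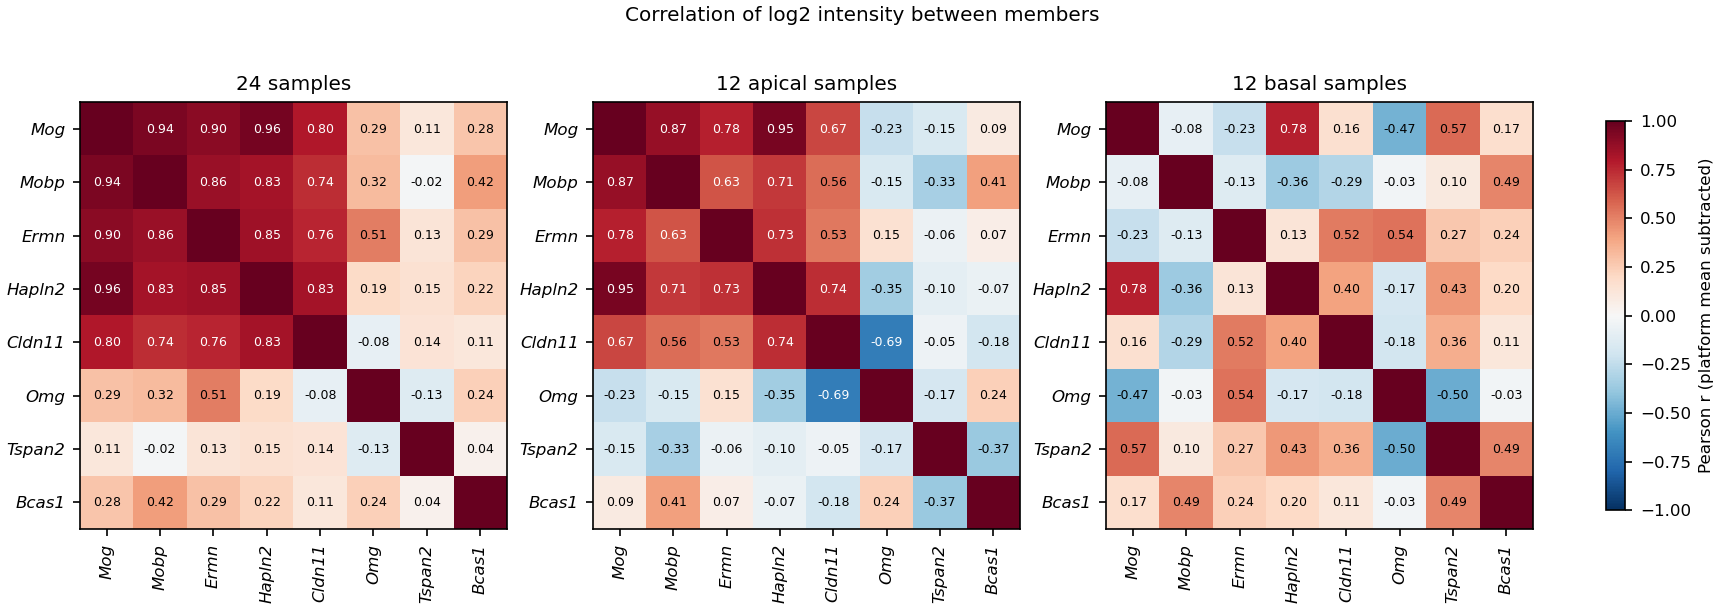
Pearson correlation of log2 intensity between members after the platform mean was subtracted, over all 24, the 12 apical and the 12 basal samples, from -1 in blue to 1 in red. The block of Mog, Mobp, Ermn and Hapln2, at 0.83 to 0.96 over all samples, spreads to -0.36 to 0.78 in the base.

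A member score, the mean of the 8 standardized levels with platform means subtracted, was correlated with 5734 other named genes over the 24 samples. The 8 genes most like it were Enpp2 (r = 0.97), Mmd2 (0.96), Ncald (0.93), Slc15a2 (0.93), Tf (0.92), Ntsr2 (0.92), Pla2g7 (0.92) and Slc6a13 (0.92), and all averaged higher in the base. Enpp2 averaged 14.44 ± 0.27 (SD, n = 12) in the base and 13.14 ± 0.61 in the apex, and Ncald, a neuronal calcium sensor, 9.99 ± 0.82 and 7.76 ± 1.36. The 3 least like it were Fst, the activin-binding follistatin (r = -0.85), Pafah1b3 (-0.79) and Dbndd1 (-0.78), and Fst averaged 9.74 ± 0.79 in the base and 12.42 ± 0.34 in the apex. The score itself followed Ermn (r = 0.95), Mog (0.94), Mobp (0.91) and Hapln2 (0.90) more than Cldn11 (0.77), Bcas1 (0.46), Omg (0.42) and Tspan2 (0.25).

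No member passed between deaf and hearing ganglia at either age. At P32 0% of transcripts were called higher and 0.00707% lower, and at P60 0.587% higher and 0.0707% lower. Median member differences were -0.43 log2 units at P32 and 0.25 at P60, beside -0.03 and -0.01 over all transcripts, and 1 member at P32 and 2 at P60 had an unadjusted p under 0.05, as did 406 and 1368 of all 14138 transcripts. Within the portions no member passed either, where 0% of transcripts were called in the P32 apex and in the P32 base, 0.248% in the P60 apex and 0.0283% in the P60 base.

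Omg came nearest. Omg levels in the apex at P32 were 12.62, 12.76 and 12.95 in hearing and 12.23, 11.90 and 12.20 in deaf samples. Omg levels in the apex at P60 were 12.95, 13.24 and 12.86 in hearing and 12.33, 11.42 and 12.32 in deaf samples. Every deaf apical sample was below every hearing apical sample of its age. Omg levels in the base at P32 were 13.16, 13.04 and 12.88 in hearing and 12.99, 12.42 and 12.91 in deaf samples. Omg levels in the base at P60 were 13.04, 13.32 and 12.97 in hearing and 12.61, 12.97 and 12.64 in deaf samples, and the basal groups overlapped narrowly at both ages. Deaf minus hearing was -0.46 ± 0.17 log2 units at P32 (unadjusted p = 0.0153, adjusted p = 1) and -0.68 ± 0.17 at P60 (unadjusted p = 0.000887, adjusted p = 0.0848). The P60 difference passed with the replicate number as a block (adjusted p = 0.0475). Same-numbered samples varied together in the P60 base but not in every apical pair, which cannot be told from the platform shift. With the portion pair as a random block the P60 difference did not pass (adjusted p = 1). Deaf samples were lower in 11 of the 12 same-numbered pairs. These pairs join different rats and are not taken as independent, so this is a count of directions. Taking the P60 apex by itself, the difference was -0.99 ± 0.24 (adjusted p = 0.116). The deaf-minus-hearing difference was 0.52 ± 0.24 higher in the base than in the apex, which did not pass (adjusted p = 1), with 0% of transcripts called.

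Cldn11 and Hapln2 had higher estimates in the deaf than in the hearing apex at P60, without passing. The 3 samples of each group did not overlap. Cldn11 differed there by 1.17 ± 0.33 log2 units (adjusted p = 0.233) and Hapln2 by 1.84 ± 0.90 (adjusted p = 0.742). For Hapln2 hearing replicates 2 and 3, at 5.43 and 6.08, lay below the lowest 1% of transcripts of their samples. As means of both portions at P60 they differed by 0.79 ± 0.23 (adjusted p = 0.174) and 0.98 ± 0.64 (adjusted p = 0.702). At P32 Cldn11 differed by 0.02 ± 0.23, with a 95% interval from -0.47 to 0.51, and the change of its deafness effect from P32 to P60 was 0.77 ± 0.33 (adjusted p = 1; 0% of transcripts called). Mog, Mobp, Ermn and Hapln2 were lower in deaf ganglia at P32 by estimates of -0.42, -0.44, -0.62 and -0.75, none past the test. The Hapln2 estimate includes deaf apical replicate 1, which at 6.90 lay below the lowest 1% of its sample, at 6.93. Without P32 hearing apex replicates 1 and 3 the same 4 estimates turned to 0.36, 0.04, 0.74 and 0.56. Tspan2 and Bcas1 differed by 0.45 and -0.40 at P32 and by 0.17 and -0.17 at P60.

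**Figure D5:**
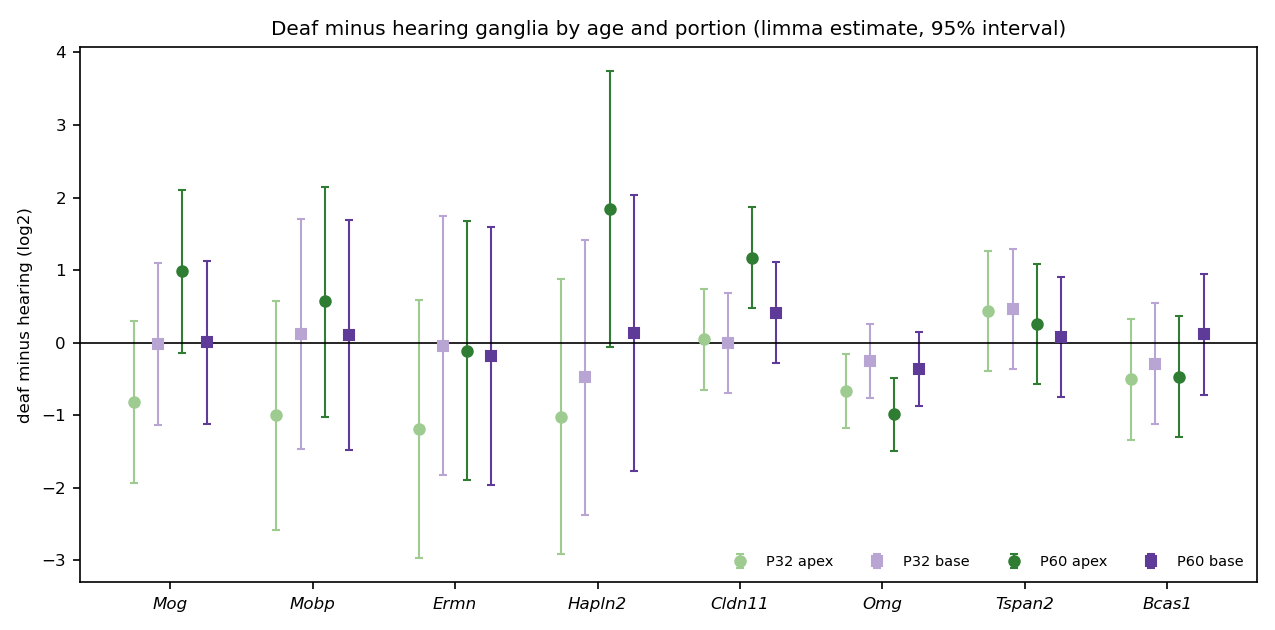
Deaf-minus-hearing difference in log2 intensity of the 8 members in the P32 apex, P32 base, P60 apex and P60 base, as limma estimates with 95% intervals. The Omg intervals in both apical comparisons lie below 0 and the Cldn11 interval in the P60 apex above it, although none passed after adjustment.

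With age, no member passed in hearing or deaf rats. In hearing rats 0% of transcripts were called higher and 0.0283% lower at P60 than at P32, and in deaf rats 0% higher and 0.0212% lower. Within each portion and condition, 0% were called in any of the 4 comparisons of P60 with P32. Hearing rats at P60 had lower estimates of Mog (-1.42 ± 0.38, adjusted p = 0.557), Mobp (-1.48 ± 0.53, adjusted p = 0.721), Hapln2 (-1.84 ± 0.64, adjusted p = 0.721) and Cldn11 (-0.55 ± 0.23, adjusted p = 0.721), and these 4 had an unadjusted p under 0.05, as did 918 of all 14138 transcripts. The apical estimates were -2.60 log2 units for Mog, -2.96 for Mobp and -3.16 for Hapln2, and without P32 hearing apex replicates 1 and 3 they were -1.04 ± 0.59, -2.0 ± 1.09 and -0.53 ± 1.01. In the hearing base the group means of Mog were 13.30 and 13.06 and those of Mobp 13.45 at both ages. Without P32 hearing apex replicates 1 and 3 the hearing estimates shrank to -0.64 for Mog, -1.0 for Mobp, -0.53 for Hapln2 and -0.24 for Cldn11, and that of Ermn turned from -0.60 to 0.75. In deaf rats the members differed by -0.70 to 0.28, and none had an unadjusted p under 0.05.

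In the order of the 8 group means, all 4 basal groups ranked above all 4 apical groups for Mog, Mobp, Ermn and Hapln2. For Mog the P32 hearing base was highest at 13.30 ± 0.23 (SD, n = 3) and the P60 hearing apex lowest at 9.21 ± 1.10. The 4 basal means of each gene differed by less than the largest SD among them. Among the apical groups the P32 hearing one ranked highest, through its replicates 1 and 3, and the P32 deaf one next, and neighbours in that order overlapped, except the P60 deaf and P60 hearing apex for Hapln2. The other P32 hearing apical sample, replicate 2, lay below the P32 deaf apical mean in each of the 4 genes, for Mog at 10.09 beside a mean of 10.99. Cldn11 was highest in the P60 deaf base, at 13.98 ± 0.32, and lowest in the P60 hearing apex, at 12.09 ± 0.36. For Omg the 4 hearing groups came before the deaf basal groups, and the deaf apical groups were last at 12.11 ± 0.19 and 12.02 ± 0.52. The group means of Tspan2 ran from 10.02 to 10.66 and those of Bcas1 from 11.60 to 12.49, ranges under the SD of their most variable groups, 1.10 and 1.24.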

How the data were processed

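RNA of 24 pooled ganglion samples was amplified, given the dye Cy3 and read on NimbleGen arrays in 1 colour. The deposited values are intensity values on a linear scale that the authors normalized with RMA, per the submitters' processing notes, with the version not given in the sources used here, and technical replicates were averaged, per the labels. Log2 values had been assumed, so log2 was taken here. The platform tables hold 26419 transcripts and the table of the series holds 14138 of them. The sources used here do not state if RMA was run over both platforms at once, and 0 columns of values were left without a sample. Names come from RefSeq (GRCr8), used for names and promoter windows.

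All 14138 transcripts entered a limma 3.58.1 fit (R 4.3.3), two-sided, on 8 group means with an additive platform term and 15 residual degrees of freedom, and the procedure was tested on simulated data. The simulated samples varied independently and held no platform shift, so they cannot show how same-numbered samples that vary together affect the p-values. The comparisons were deaf against hearing by age, base against apex and P60 against P32 by condition, differences of these effects, and 12 comparisons of single groups. The members and the gene lists were chosen with earlier results of these data known, so no pattern here is independent support. Named besides the members are the genes of each list with the smallest p among those called (at most 4 per comparison), defining markers, and the 8 most and 3 least alike genes. Mag, Mbp, Cnp and Sox10 were added after their values were seen, and some genes are not reported here.

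Whether same-numbered samples vary together was checked by the correlation of their deviations from group means. These deviations still held the platform shift, which follows the replicate number, so the check cannot show that numbers pair samples. Every pair was over 0.1 for base against apex in hearing rats (0.596 to 0.881 at P32, 0.818 to 0.88 at P60), in P32 deaf rats (0.86 to 0.932), for deaf against hearing at P32 and in the P60 base (0.825 to 0.852) and for age, but not between the portions of P60 deaf rats (0.074 to 0.688) or between deaf and hearing in the P60 apex (-0.011 to 0.511). No array background was given, so whether dim values stand above background was not tested. This holds for the lowest apical values of Hapln2, Ermn and Mobp. Precision is limited by how many arrays there are.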

Additional observations from a re-analysis of the deposited data

How the results depend on the processing

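The calls rest on 3 pools a group, and a portion difference cannot be told apart from a difference in what was dissected with each portion. Of the member differences under all alternatives, 1626 kept direction and side of the threshold, 34 changed sign, 28 newly passed and 34 no longer passed, and the cause of such changes was not tested. Without the platform term 2 members were called between the portions of hearing rats, and on the 16-sample platform 1, where fewer samples enter. In deaf rats 0 were called on the 16-sample platform and 5 with 1 transcript per named gene. Leaving out 1 sample gave 1 to 5 members in hearing and 3 to 5 in deaf rats between the portions, and 0 in the deafness, age and interaction comparisons. Without P32 hearing apex replicates 1 and 3, chosen after seeing the data, deaf minus hearing at P32 turned to 0.36 for Mog, 0.04 for Mobp, 0.74 for Ermn and 0.56 for Hapln2, and Ermn with age in hearing rats to 0.75. On the 16-sample platform Tspan2 between deaf and hearing at P32 and Bcas1 with age in hearing rats turned to -0.03. Estimates near 0 crossed it when 1 sample was left out. Between deaf and hearing ganglia these were Cldn11 at P32 (-0.13 to 0.19), Mobp at P60 (-0.17 to 0.76) and Ermn at P60 (-0.35 to 0.13). Between the portions they were Tspan2 (-0.02 to 0.46 in hearing, -0.01 to 0.26 in deaf rats) and Bcas1 in hearing rats (-0.08 to 0.25). With age they were Bcas1 in hearing rats (-0.14 to 0.19) and, in deaf rats, Ermn (-0.37 to 0.16), Hapln2 (-0.48 to 0.14), Omg (-0.15 to 0.09) and Tspan2 (-0.03 to 0.23).

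With the replicate number as a block, Omg passed between deaf and hearing at P60 (adjusted p = 0.0475), where 1 member was then called, and 5 passed between the portions of deaf rats. By the check, same-numbered samples varied together in the P32 deaf portions and P60 base, not in all P60 deaf portions or the P60 apex. The check cannot tell this from the platform shift. With the portion pair as a random block (correlation 0.639), 6 passed between the portions of deaf rats. The block changed no other call of a member than these and that of Cldn11 in hearing rats. Over all transcripts the block gave 4 calls for deaf against hearing at P32 (1 in the fit reported), 225 at P60 (93), 170 between the portions of hearing (85) and 265 of deaf rats (149), and 19 with age in deaf rats (3). The random block gave 0, 2, 962, 1246 and 0, and 0 with age in hearing rats (4). The fit reported takes the portions as independent. If same-numbered portions share ganglia, its p-values are too small for deafness and age over both portions and too large between the portions.

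Other transcript counts moved too. Deaf against hearing at P32 gave 15 on the 16-sample platform, 2 on the platform tables, 0 without the dimmest 25%, 2 with log2(value + 100) and 38 without the pair of P32 samples (1 to 52 without 1 sample). At P60 it gave 53 without platform, 5, 51 without the dimmest and 220 without the pair (42 to 220). Between the portions, hearing rats gave 54 on the 16-sample platform and 332 without the pair (19 to 436), and deaf rats 92 without platform, 28, 257 on the platform tables and 258 (84 to 255). With age, hearing rats gave 0 without platform, 2 on the 16-sample platform, 1 on the platform tables, 2 after quantile normalization or median centring, 0 with an intensity trend and 1 without the pair (0 to 6). Deaf rats gave 0, 1, 7, 7 after quantile normalization, 6 with 1 transcript per gene, 5 with log2(value + 100) and 7 (1 to 8). The extremes of 52, 220, 436 and 255 were without P32 hearing apex replicate 1.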
